A study of Mus musculus with 3 samples.

Results

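Enzymes that make or break down eicosanoids, the lipid mediators derived from arachidonic acid, were followed through the leukocytes of the mouse aorta. The 10 genes were the phospholipases Pla2g4a and Pla2g2d, the 5-lipoxygenase branch Alox5, Alox5ap and Ltc4s, the lipoxygenase Alox15, the cyclooxygenases Ptgs1 and Ptgs2, the prostaglandin D2 synthase Hpgds and the prostaglandin dehydrogenase Hpgd. They were selected on their measured levels across the leukocyte types of these cells, so their pattern over cell types is a description and carries no test. They are 10 of the 32285 genes counted, and all 10 were detected.

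The cells were CD45+ cells of aortas from 5 Jak2WT mice, called mice 1 to 5, and from 5 Jak2V617F Myel mice, which carry 1 floxed Jak2V617F allele (WT/Flex) and LysM-Cre. LysM-Cre acts in myeloid cells and is not restricted to those of the vessel wall; the labels call the controls WT and do not give their Cre status. Mice 6, 8 and 10 of the mutant group had aortic dilation without aneurysm, and mice 7 and 9 had an aneurysm. Cells in the circulation had been marked with an intravenous anti-CD45.2 antibody and excluded, the aortas were digested with enzymes at 37 degrees, and the numbers sorted were balanced between the genotypes. The age of these mice was not given in the sources used here, and the mutation itself cannot be read from transcript counts.

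All mice were sequenced as 1 pool, in which a hashtag antibody marked the cells of each mouse. Barcodes with several hashtags or none were removed, which left 5857, and then cells over a 10% mitochondrial limit. After both steps 4871 cells remained, 112 to 811 per mouse, with 1038443 to 9643994 unique molecular identifiers (UMIs, counted transcript molecules) per mouse. The aneurysm mice gave the most cells and the deepest ones, with 795 and 811 cells and a median of up to 10775 UMIs per cell. Levels are given as CPM, the UMIs of a gene in the cells of a class from a mouse per 1000000 UMIs of all genes in the same cells. The mouse was the replicate, and a class was summed in a mouse only where it had at least 10 cells.

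Arachidonic acid is released from membrane lipids by phospholipases A2. 5-Lipoxygenase, with the help of its activating protein encoded by Alox5ap, turns it into leukotriene A4, which Ltc4s couples to glutathione to give the cysteinyl leukotrienes. The cyclooxygenases turn it into prostaglandin H2, from which terminal synthases such as Hpgds make the individual prostanoids, and Hpgd starts the inactivation of prostaglandins. Ptgs1 is regarded as the constitutive form and Ptgs2 as the inducible one, and macrophages, mast cells and platelets are known as rich sources of these lipids.

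Starts of transcription are shown for the 4 members whose promoter held a match to a short motif in the window searched and which differed most in where they were expressed. Each window holds the 250 bases before the start in RefSeq on GRCm38.p6, written 5′ to 3′ on the strand of the gene, with the matched letters in capitals. TTGCNNAA is a pattern bound by C/EBP factors and AGGAAGT is one bound by ETS factors such as PU.1.
Ptgs2, chr1:150099781-150100030, plus strand: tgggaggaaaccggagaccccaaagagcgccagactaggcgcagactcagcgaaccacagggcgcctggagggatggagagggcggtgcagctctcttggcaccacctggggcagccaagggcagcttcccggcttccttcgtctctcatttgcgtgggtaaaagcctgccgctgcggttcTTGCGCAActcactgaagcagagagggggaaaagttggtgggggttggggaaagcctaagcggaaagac
Hpgds, chr6:65144731-65144980, minus strand: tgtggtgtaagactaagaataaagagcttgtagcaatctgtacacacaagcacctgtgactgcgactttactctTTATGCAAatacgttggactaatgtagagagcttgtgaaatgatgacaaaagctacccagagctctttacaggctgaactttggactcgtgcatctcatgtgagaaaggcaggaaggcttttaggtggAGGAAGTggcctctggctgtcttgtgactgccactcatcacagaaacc
Ltc4s, chr11:50238533-50238782, minus strand: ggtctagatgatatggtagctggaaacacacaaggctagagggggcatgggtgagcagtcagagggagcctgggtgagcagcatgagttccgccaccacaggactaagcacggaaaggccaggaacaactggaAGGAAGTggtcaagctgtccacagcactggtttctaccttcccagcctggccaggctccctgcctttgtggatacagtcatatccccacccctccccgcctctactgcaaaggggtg
Ptgs1, chr2:36230176-36230425, plus strand: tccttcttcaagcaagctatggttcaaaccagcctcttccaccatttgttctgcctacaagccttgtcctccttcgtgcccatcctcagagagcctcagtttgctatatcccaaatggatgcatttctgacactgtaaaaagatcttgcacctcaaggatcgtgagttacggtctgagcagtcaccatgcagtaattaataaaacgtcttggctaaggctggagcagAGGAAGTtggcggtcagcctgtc

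Of the 10 members, 8 had a promoter in the table used, with 9 promoters in all, and 11 motifs were searched on both strands. AGGAAGT was found in 4 of the 9 promoters, those of Ptgs1, Hpgds and Ltc4s and 1 of those of Pla2g4a, whereas 7.69% of all 32851 promoters held it. It lay at −23 to −17 in Ptgs1, at −48 to −42 in Hpgds, at −117 to −111 in Ltc4s and at −14 to −8 in Pla2g4a, counted from the start. The Pla2g4a window with the match, chr1:149922440-149922689, lay inside the annotated gene, which starts at 149961290 on the minus strand. The Pla2g4a window before that start had no match. The windows of Hpgds and Ltc4s partly overlapped the annotated genes, which start at 65144908 and 50238616 on the minus strand. TTGCNNAA was found in Ptgs2, at −69 to −62, and in Hpgds, at −176 to −169, against 9.56% of all promoters. TATAAA was found in 1 promoter of Pla2g4a, against 12.4% of all. The other 8 motifs had no match in a member promoter; they were the cAMP response element TGACGTCA and its core TGACG, which overlap, the AP-1 site TGAGTCA, the NF-kappaB site GGGACTTCC, the STAT site TTCNNNGAA and a form of it with 1 more base between its arms, the E-box CACGTG and the GATA site AGATAA. Those 8 motifs were held by 0.685% (the NF-kappaB site) to 17.8% (the cAMP core) of all promoters. A match shows only that the letters are present.

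Cell classes were formed by clustering with all genes of the eicosanoid pathway left out of the variable genes, so that the members did not enter the clusters. Macrophages, the largest class with 1722 cells, divided into Res-MGL1hi, Res-S100hi and Res-Txnip hi cells, pooled here as resident macrophages (633 cells), IEG+ Vcam1+ cells with immediate-early genes (507 cells), Ccr2+ inflammatory cells (476 cells) and smaller clusters. A further 390 low-RNA macrophages, with a median of 1858 UMIs, were set aside from these subsets and from the tests over all macrophages, and enter only the shares of UMIs. A cavity-type myeloid class of 207 cells carried markers of macrophages of body cavities and had the highest TIM4 antibody count (mean 211). Mast cells (65 cells) had a mean CD117 antibody count of 150, against 5.76 in the next class, and neutrophils led for Ly6G with 52.2. A cluster of 37 cells led by Prss34, Mcpt8 and Siglecf stayed unnamed, and 35 of its cells came from aneurysm mouse 9. Its mean Ly6G count was next, at 36.5. It had been divided from the neutrophil cluster after the clusters had been seen. Cavity-type cells came mainly from mouse 10 (99 cells), mouse 5 (77 cells) and mouse 8 (13 cells), and the other mice gave 0 to 5 each, so this class rests on 3 mice.

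**Figure D1:**
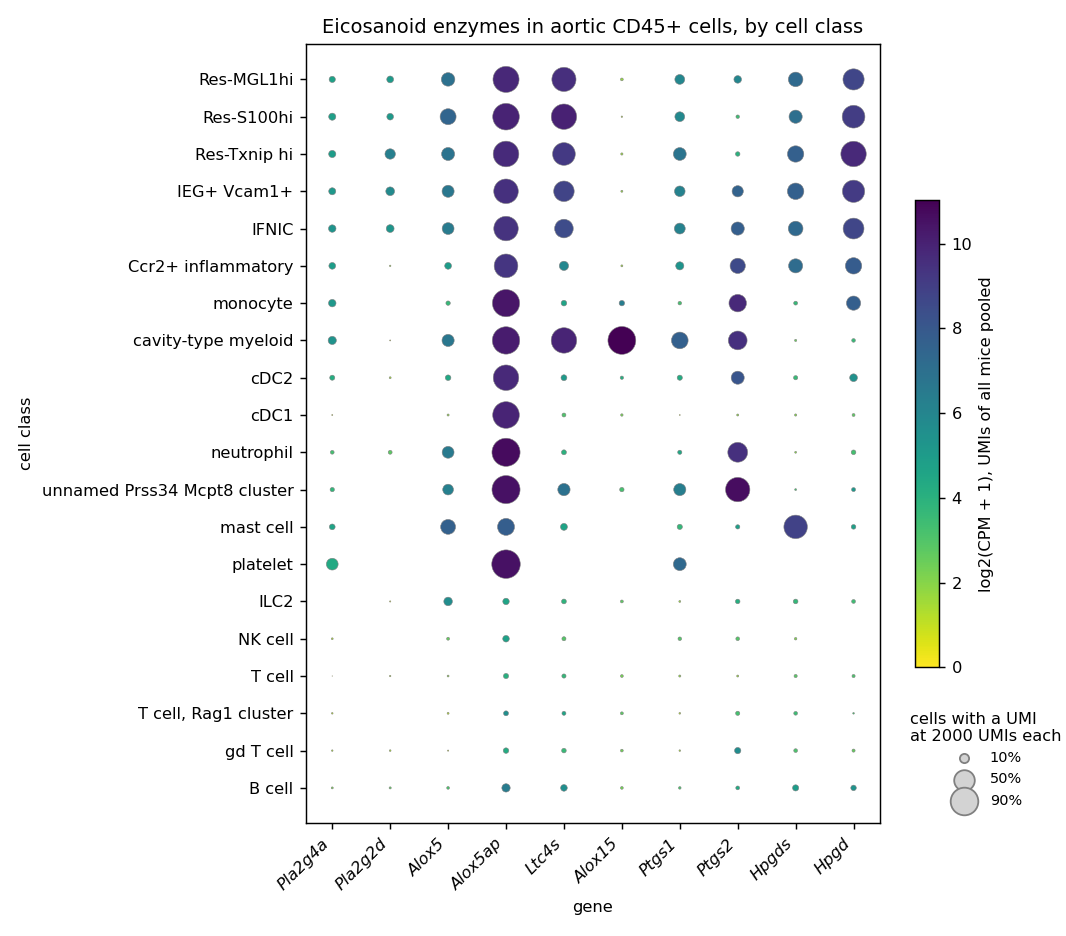
Levels of the 10 members in the cell classes, pooled over mice: colour gives log2(CPM + 1), and the area of a dot gives the percentage of cells with at least 1 UMI after cells were thinned to 2000 UMIs. Cells with fewer UMIs cannot be thinned to that depth, and the median was 1033 UMIs in platelets and 1858 in low-RNA macrophages. Alox15 stood out in cavity-type cells (2093 CPM), Hpgds in mast cells (463 CPM) and Hpgd in Res-Txnip hi macrophages (873 CPM).

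The phospholipases were the least abundant members by UMI total. Pla2g4a, the cytosolic phospholipase that feeds arachidonic acid to both oxygenase branches, gave 1048 UMIs, with 14.6% of all cells holding at least 1. It was spread broadly, with a mean of 42.8 ± 5.78 CPM (SD, n = 3 mice) in cavity-type cells, and pooled levels of 34.3 in IEG+ Vcam1+, 30.2 in Res-Txnip hi and 29.1 CPM in Ccr2+ inflammatory macrophages. Its neighbouring classes overlapped between mice. Pla2g2d, a secreted phospholipase of the same superfamily, gave 763 UMIs and was mostly a macrophage transcript, with 92.8% of its UMIs in macrophages, low-RNA cells included. Its mean was 74.2 ± 54.0 CPM (SD, n = 10) in Res-Txnip hi cells. Pooled over mice, Pla2g2d stood at 55.3 CPM in IEG+ Vcam1+, at 33.9 in Res-S100hi and at 32.9 in Res-MGL1hi cells, but at 1.9 in Ccr2+ inflammatory and 0.5 in cavity-type cells. The 12 Ccr2+ inflammatory cells of Jak2WT mouse 2 had 79.7 CPM, from 10 UMIs.

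The 5-lipoxygenase branch was expressed across macrophages, but its members did not follow the same classes. Alox5, the lipoxygenase itself, had its highest mean in mast cells, 208 ± 56.0 CPM (SD, n = 4), with the values of Res-S100hi cells next and overlapping, and macrophages held 67.2% of its UMIs. Among macrophages, its pooled level was 179 CPM in Res-S100hi and 30.04 CPM in Ccr2+ inflammatory cells. Alox5ap was the most widespread member, found in 62.0% of cells, at 1163 ± 33.8 CPM (SD, n = 3) in cavity-type cells and at pooled levels of 1688 CPM in neutrophils, 1502 CPM in platelets, 1368 CPM in monocytes and 966 CPM in cDC1. Those cDC1, cross-presenting dendritic cells, had almost no UMI of the other members: their mean for Alox5 was 1.70 ± 1.98 CPM (SD, n = 4).

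Ltc4s, which makes leukotriene C4, was concentrated in resident and cavity-type macrophages. Macrophages held 63.9% of its UMIs and cavity-type cells 30.04%. Its highest mean was 995 ± 88.0 CPM (SD, n = 6) in Res-S100hi cells, followed by 778 ± 478 (n = 3) in cavity-type, 775 ± 131 (n = 7) in Res-MGL1hi, 594 ± 69.8 (n = 10) in Res-Txnip hi and 417 ± 116 CPM (n = 9) in IEG+ Vcam1+ cells. Each of these classes overlapped the next. A gap followed: IEG+ Vcam1+ cells did not overlap Ccr2+ inflammatory cells, whose mean Ltc4s level was 58.9 ± 14.7 CPM (SD, n = 4), close to that of B cells (55.3 ± 33.5 CPM, n = 9). Cavity-type cells of mouse 8 had 262 CPM of Ltc4s, below the 1207 CPM of mouse 5 and the 866 CPM of mouse 10. Mast cells, in which Alox5 and Alox5ap were present, had only 6 Ltc4s UMIs in all, with 0 UMIs in mice 2, 3, 5 and 6.

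Alox15, a lipoxygenase that oxygenates arachidonic acid and is known as a marker of peritoneal macrophages, was nearly confined to a single class. Cavity-type cells held 94.0% of its 9337 UMIs. Its level there was 1821 CPM in Jak2WT mouse 5, 1858 CPM in dilation mouse 8 and 2295 CPM in dilation mouse 10, with a mean of 1991 ± 263 CPM (SD, n = 3). The next class, proliferating cells, had 64.1 ± 74.2 CPM (n = 4) and did not overlap. The few cavity-type cells of the other mice had Alox15 as well, at 1715 to 4310 CPM in 1 to 5 cells each. After thinning, 91.5% of cavity-type cells had an Alox15 UMI, against 0.92% of B cells. The 65 mast cells had no Alox15 UMI, which allows up to 14.7 CPM (upper end of the exact 95% Poisson interval, counting error only). Monocytes had a pooled Alox15 level of 83.4 CPM, but it rested on 29 UMIs in 2 cells of mouse 8.

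The cyclooxygenases differed from each other in their distribution. Ptgs1, the constitutive form, was split between cavity-type cells, with 34.8% of its UMIs and a mean of 169 ± 65.1 CPM (SD, n = 3), and macrophages, with 51.3% of its UMIs and the highest mean, 105 ± 22.9 CPM (n = 10), in Res-Txnip hi cells; these classes overlapped between mice. Platelets, which use Ptgs1 to make thromboxane, gave only 8 UMIs of it (158 CPM) beside 99 UMIs of the platelet lipoxygenase Alox12 (1956 CPM). Ptgs2, the inducible form, was low in resident macrophages, which held 2.44% of its UMIs, and high in several other myeloid classes. Its pooled level was 1631 CPM in the unnamed cluster led by Prss34 and Mcpt8, 868 CPM in monocytes and 721 CPM in neutrophils, classes that were small or came mainly from a single mouse. Among classes with at least 3 mice, its mean was 712 ± 100 CPM (SD, n = 3) in cavity-type cells, 320 ± 111 (n = 4) in Ccr2+ inflammatory macrophages, 223 ± 153 (n = 9) in cDC2 and 187 ± 104 CPM (n = 9) in IEG+ Vcam1+ macrophages. The first 2 of these did not overlap, and the others did.

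Within a class, Ptgs2 was carried by some cells only. After thinning, 41.6% of cavity-type cells, 27.4% of Ccr2+ inflammatory macrophages, 14.9% of IEG+ Vcam1+ cells and 4.0% of resident macrophages had a Ptgs2 UMI, against 1.7% of B cells, whose median depth was 5615 UMIs against 19807 in cavity-type and 10464 in resident cells before thinning. Of these classes, resident macrophages lay closest to B cells, in which Ptgs2 ran from 0 CPM in mouse 3 to 65.6 CPM in mouse 2. Its level also varied between mice in cavity-type cells: mice 5, 8 and 10 had 693, 622 and 820 CPM, and the mice with 1 to 5 such cells spread from 0 CPM (Jak2WT mouse 3), 13.0 (Jak2WT mouse 2), 20.4 (aneurysm mouse 7) and 30.9 CPM (Jak2WT mouse 1) to 525 (dilation mouse 6) and 2025 CPM (aneurysm mouse 9).

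The terminal enzymes of the prostaglandin branch were divided between mast cells and macrophages. Hpgds, which makes prostaglandin D2, had its highest mean in mast cells, 499 ± 127 CPM (SD, n = 4), which did not overlap the 212 ± 54.2 CPM (n = 9) of IEG+ Vcam1+ macrophages. After thinning, 65.0% of mast cells had an Hpgds UMI, against 4.5% of B cells. By number of UMIs, however, macrophages held 87.0% of Hpgds and the few mast cells 2.93%. Pooled over mice, Hpgds stood at 206 CPM in Res-Txnip hi, 154 CPM in Res-MGL1hi, 130 CPM in Res-S100hi and 4.8 CPM in cavity-type cells. Hpgd, the dehydrogenase that inactivates prostaglandins, was a macrophage transcript, with 91.9% of its UMIs there. Its mean was 890 ± 177 CPM (SD, n = 10) in Res-Txnip hi, 576 ± 150 (n = 9) in IEG+ Vcam1+, 508 ± 129 (n = 6) in Res-S100hi, 431 ± 51.1 (n = 7) in Res-MGL1hi and 366 ± 179 CPM (n = 4) in Ccr2+ inflammatory cells, each overlapping its neighbours. A gap separated all of these from proliferating cells (51.8 ± 18.1 CPM, n = 4). Cavity-type cells had 20.1 ± 28.8 CPM of Hpgd (n = 3).

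Cavity-type cells thus had the synthetic members Alox15, Ptgs1 and Ptgs2 at high levels, but not all synthetic members. Hpgds was at 1.24, 16.4 and 2.98 CPM in mice 5, 8 and 10, and Pla2g2d at 0, 0 and 0.50 CPM. The breakdown enzyme Hpgd was at 0.62, 53.2 and 6.46 CPM in the same mice. B cells had 15.3 to 54.7 CPM of Hpgd. Among the other pathway genes, Ptgis, the prostacyclin synthase, had a mean of 383 ± 101 CPM (SD, n = 3) in cavity-type cells, which held 83.8% of its UMIs, and Ptges, an inducible prostaglandin E synthase, had 54.7 ± 28.0 CPM there, with 91.1% of its UMIs. In resident macrophages, Ptgis stood at 1.02 CPM and Ptges at 0.146 CPM, pooled over mice, while the thromboxane synthase Tbxas1 stood at 92.3 CPM against 56.5 CPM in cavity-type cells. Lta4h, which makes leukotriene B4 from the same precursor that Ltc4s uses, differed little, with 27.3 CPM in resident macrophages and 25.8 CPM in cavity-type cells.

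**Figure D2:**
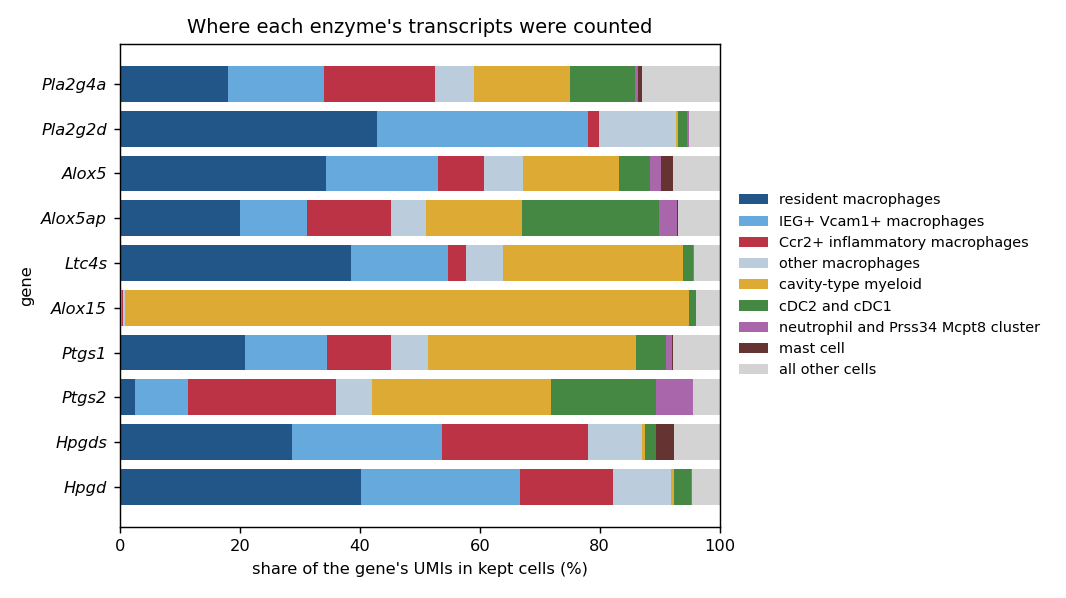
Share of the UMIs of each member found in each group of cell classes, in percent of all UMIs of that gene. Cavity-type cells held 94.0% of Alox15, 34.8% of Ptgs1, 30.04% of Ltc4s and 29.96% of Ptgs2, and the macrophage groups together, low-RNA cells included, held 91.9% of Hpgd and 92.8% of Pla2g2d.

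Genes whose level ran most like that of a member were sought over the 22 classes with at least 30 cells. The classes share 1 library and the same mice, so the values of Pearson's r on log2(CPM + 1) are descriptive. For Ltc4s, they were Ccl24 (r = 0.947) and C1qc (0.945), for Hpgd Mrc1 (0.946) and Cbr2 (0.943), and for Hpgds Slco2b1 (0.926) and Tlr5 (0.920). For Ptgs2, they were Ccrl2 (0.892) and the chemokine Cxcl2 (0.853), and for Alox15 Naip1 (0.890) and Fabp7 (0.874). Ptgs1 ran most like Hacd4 (0.920) and then like another member, Pla2g4a (0.897). Alox5 ran like Tmem104 (0.898) and Agap1 (0.893), and Alox5ap like Skap2 (0.946) and Cd300a (0.936). Pla2g4a ran like Lamp2 (0.939) and Camk1 (0.914), and Pla2g2d like Tnfrsf17 (0.929) and Ccdc106 (0.923).

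Whether the mutation changed these enzymes was asked first within resident macrophages, where all 10 mice gave 29 to 108 cells. None of the members passed the test between genotypes. Of the 9 members with enough counts, 6 had a log2 fold change below 0, with a median of −0.09 against −0.02 over all genes. The test called 0.845% of all genes (56 of 6628, edgeR's quasi-likelihood test with Benjamini-Hochberg adjustment). The 9 log2 fold changes ran from −0.73 to 1.41, 4 of them with an unadjusted p under 0.05, as had 12.2% of all genes, and DESeq2 called none either. Alox15, the member not tested, gave too few UMIs in these cells.

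Ptgs2 had the largest difference in resident macrophages. Its level was 16.5, 10.6, 5.67, 30.6 and 23.1 CPM in Jak2WT mice 1 to 5. It was 36.7, 12.8 and 37.3 CPM in dilation mice 6, 8 and 10. It was 81.4 and 60.6 CPM in aneurysm mice 7 and 9. All mutant mice but mouse 8 lay above all Jak2WT mice. The means were 17.3 ± 9.89 CPM (SD, n = 5) in Jak2WT and 45.7 ± 26.1 CPM (n = 5) in mutant mice, from 42 and 205 UMIs in all, and the log2 fold change of 1.41 (SE 0.42) did not pass the test (edgeR adjusted p = 0.134). B cells, taken here as the gauge of free RNA, had 19.7 CPM of Ptgs2 pooled over mice, near the Jak2WT level of resident macrophages. Of those 87 UMIs, 47 came from mouse 10 and 16 from mouse 2. By mouse, B cells ran from 0 CPM in mouse 3 to 65.6 CPM in mouse 2. T cells ran from 0 CPM in mouse 1 to 11.4 CPM in mouse 6, the latter from 1 UMI. The B cell level is therefore an uncertain gauge for Ptgs2. How far free RNA made up the Jak2WT level was not tested. Without dilation mouse 8 the log2 fold change was 1.62 and passed (edgeR adjusted p = 0.0426). It also passed without a filter on low counts (1.46, edgeR adjusted p = 0.000133). In the other 17 of 19 alternative settings it did not pass, and over all 19 it ran from 0.56 to 1.62.

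Pla2g2d, Hpgd and Hpgds lay on the other side. Pla2g2d had 49.4 to 79.3 CPM in the 5 Jak2WT mice and 25.6 to 62.0 CPM in the mutant mice, with means of 66.1 ± 14.7 and 38.7 ± 15.9 CPM (SD, n = 5 each). The groups overlapped only through mutant mouse 6, and the log2 fold change of −0.73 (SE 0.25) did not pass (edgeR adjusted p = 0.209). Hpgd was 563, 728, 963, 456 and 753 CPM in Jak2WT mice 1 to 5 and 501 to 567 CPM in the mutant mice. Its log2 fold change was −0.37 (SE 0.14, edgeR adjusted p = 0.267). Hpgds was 191, 202, 261, 126 and 214 CPM in Jak2WT mice and 126 to 171 CPM in mutant mice. Its log2 fold change was −0.45 (SE 0.14, edgeR adjusted p = 0.18). For both, Jak2WT mouse 4 fell at or below the range of the mutant mice while the other Jak2WT mice lay at its top or above. Ltc4s, the most abundant leukotriene enzyme of these cells, had 773 ± 126 CPM in Jak2WT and 741 ± 56.0 CPM in mutant mice (SD, n = 5 each), and Alox5 had 127 ± 48.6 and 131 ± 7.80 CPM.

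**Figure D3:**
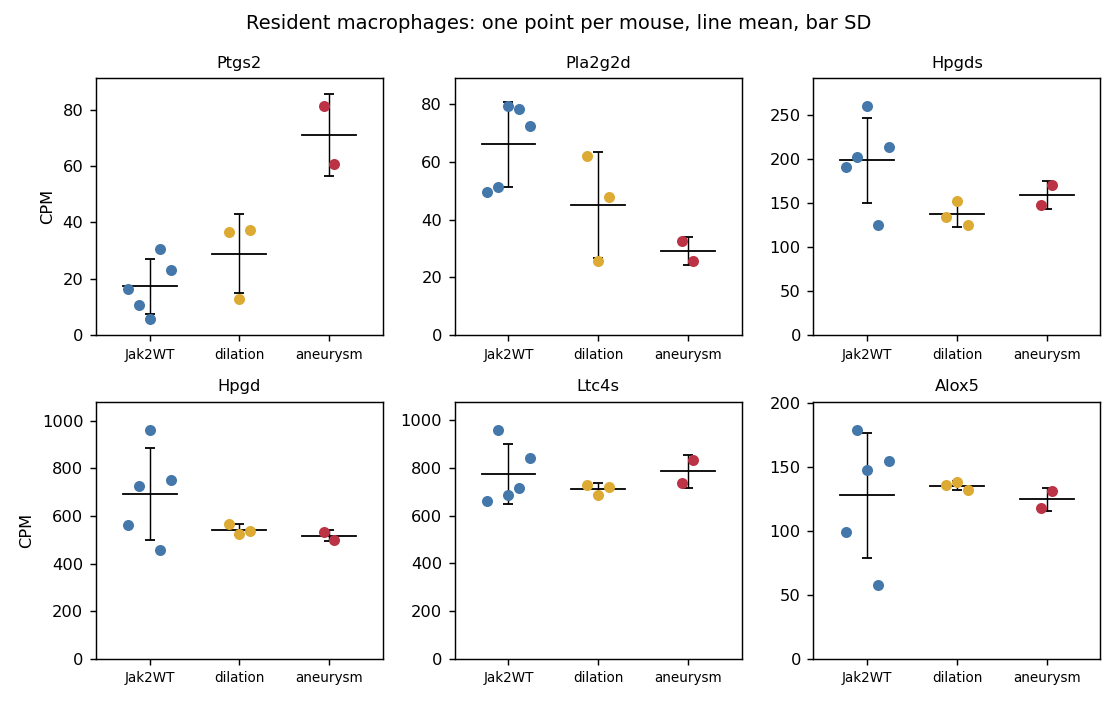
Levels in resident macrophages in CPM, 1 point per mouse, for 6 members in Jak2WT mice and in Jak2V617F Myel mice with dilation and with aneurysm; bars give the mean and SD. Ptgs2 was 5.67 to 30.6 CPM in Jak2WT mice and 60.6 to 81.4 CPM in the 2 aneurysm mice, while dilation mouse 8, at 12.8 CPM, lay within the Jak2WT range. The levels of the other members also overlapped between genotypes.

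The make-up of the resident macrophages moved with the genotype in the same cells. Res-MGL1hi cells were 4.76% to 45.2% of the resident macrophages in Jak2WT mice and 50.8% to 64.4% in mutant mice, and Res-Txnip hi cells were 33.3% to 85.7% and 14.4% to 29.6%. Ptgs2 was higher in Res-MGL1hi cells, at 61.8 CPM pooled over mice, than in Res-Txnip hi cells, at 14.6 CPM. Hpgd (873 against 417 CPM), Hpgds (206 against 154 CPM) and Pla2g2d (78.6 against 32.9 CPM) were higher in Res-Txnip hi than in Res-MGL1hi cells, pooled over mice. Within Res-Txnip hi cells, where every mouse had at least 13, Hpgd was 893 ± 247 CPM in Jak2WT and 888 ± 97.9 CPM in mutant mice (SD, n = 5 each), and Pla2g2d was 75.9 ± 32.9 and 72.5 ± 73.9 CPM. The mutant mean of Pla2g2d was carried by mouse 6 (192 CPM), and the medians were 79.5 CPM in Jak2WT and 30.7 CPM in mutant mice. Hpgds was 235 ± 66.2 CPM there in Jak2WT and 165 ± 33.6 CPM in mutant mice. Within Res-MGL1hi cells, Ptgs2 was 14.0 and 9.33 CPM in the 2 Jak2WT mice with at least 10 cells, from 3 and 2 UMIs. In the mutant mice it was 64.7 (mouse 6), 105 (mouse 7), 15.7 (mouse 8), 87.4 (mouse 9) and 61.9 CPM (mouse 10). The value of mouse 8 rested on 6 UMIs. Jak2WT mouse 1, with 7 such cells, had 93.4 CPM from 7 UMIs, and Jak2WT mice 3 and 4, with 2 and 4 cells, had no Ptgs2 UMI. Within Res-Txnip hi cells, Ptgs2 was 7.60, 7.95, 6.84, 46.7 and 11.5 CPM in Jak2WT mice 1 to 5. It was 7.37, 53.7, 13.9, 0 and 10.5 CPM in mutant mice 6 to 10, from 0 to 7 UMIs each, and the groups overlapped. In Res-S100hi cells (4 to 21 per mouse), Jak2WT mice had 0 to 10 Ptgs2 UMIs each and mutant mice 0 to 2. These values within a subset were not tested.

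The summed level of 19 immediate-early and heat-shock genes, which rise during enzymatic digestion, was 23892 to 39834 CPM in resident macrophages of Jak2WT mice and 34115 to 40309 CPM in mutant mice, and 1 of the 19 rose between genotypes. Markers of cavity-type cells summed to 23.4 to 181 CPM in Jak2WT and 32.2 to 55.0 CPM in mutant resident macrophages. The part of either in the levels of the members was not tested.

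Split by severity, the resident macrophages gave no call either. Dilation against Jak2WT mice called 0.0291% of genes and no member, and the largest difference was Ptgs2, with a log2 fold change of 0.80 (SE 0.40, edgeR adjusted p = 0.639). Aneurysm against dilation called 0.014% of genes and no member. There, Ptgs2 was 71.0 ± 14.6 CPM (SD, n = 2) in aneurysm and 28.9 ± 13.9 CPM (n = 3) in dilation, with a log2 fold change of 1.198 (SE 0.31, edgeR adjusted p = 0.376). These comparisons share mice with the one between genotypes.

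IEG+ Vcam1+ macrophages gave another order for Ptgs2. Its level was 179, 369, 329 and 93.6 CPM in Jak2WT mice 1, 2, 3 and 5; mouse 4 had 9 such cells and was left out. It was 95.7, 164, 68.0, 159 and 226 CPM in mutant mice 6 to 10. The groups overlapped, with means of 243 ± 129 (SD, n = 4) and 142 ± 62.1 CPM (n = 5), and the log2 fold change of −0.83 (SE 0.32) did not pass (edgeR adjusted p = 0.286). Ltc4s and Alox5 leaned the other way in these cells, with log2 fold changes of 0.40 and 0.41, and Hpgd, Hpgds and Ptgs1 were below 0, at −0.44, −0.45 and −0.64. No member passed (0 of 9, with 7 at an unadjusted p under 0.05, as were 11.5% of all genes, and none called by DESeq2), and 0.597% of all genes were called. The median log2 fold change of the members was −0.44, against −0.01 over all genes. The summed immediate-early and heat-shock genes were 64776 to 67901 CPM in Jak2WT and 48965 to 63978 CPM in mutant mice in this class, without overlap, and 4 of the 19 fell. Macrophage markers summed to 14112 to 14931 CPM in Jak2WT and 15904 to 17929 CPM in mutant mice, also without overlap, and cavity-type markers to 38.3 to 52.7 CPM and 38.5 to 702 CPM, the highest in a mouse with dilation. Their part in the levels of the members was not tested.

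The difference of the genotype effect between both macrophage classes was tested for itself, after the values had been seen, in 4 Jak2WT and 5 mutant mice with the mouse as a block. Ptgs2 was the member that passed: its genotype effect was higher by 2.21 on the log2 scale in resident than in IEG+ Vcam1+ macrophages (SE 0.46, edgeR adjusted p = 0.0226), where 0.613% of genes were called. The call was lost with DESeq2 (adjusted p = 0.0887) and with sums of at least 1 cell (adjusted p = 0.163), and without any of Jak2WT mice 1, 2 or 3 or aneurysm mice 7 or 9 (edgeR adjusted p from 0.0625 to 0.0861). Of the 19 immediate-early and heat-shock genes, 8 had a higher genotype effect in resident macrophages in the same test. Ephx1, an epoxide hydrolase, was the only other pathway gene called (−1.05, edgeR adjusted p = 0.0478).

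**Figure D4:**
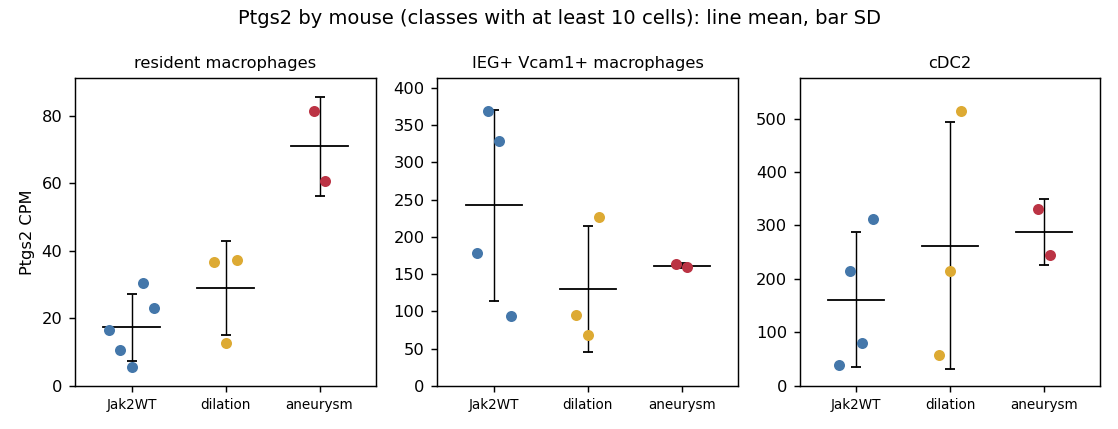
Ptgs2 in CPM, 1 point per mouse, in resident macrophages, IEG+ Vcam1+ macrophages and cDC2; bars give the mean and SD. The mutant mean was above the Jak2WT mean in resident macrophages (45.7 against 17.3 CPM) and in cDC2 (272 against 161 CPM) and below it in IEG+ Vcam1+ cells (142 against 243 CPM), with overlap in each.

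Of the classes outside macrophages, cDC2, B cells and ILC2 were fitted, and no member tested there passed between genotypes. In cDC2, the conventional dendritic cells that present antigen to helper T cells, 4 members were tested and 0.0235% of genes were called. Ptgs2 was 161 ± 126 CPM in Jak2WT (SD, n = 4) and 272 ± 167 CPM in mutant mice (n = 5), with a log2 fold change of 0.65 (SE 0.57, edgeR adjusted p = 0.825). The difference of the genotype effect between resident macrophages and cDC2 called no member and 0.0137% of genes, with Hpgds lowest at −2.91 (edgeR adjusted p = 0.368) on 0 to 32 Hpgds UMIs per mouse in cDC2. In B cells, 3 members were tested and 0% of genes were called by edgeR, with 152 genes at an unadjusted p under 0.05. In ILC2, which respond to prostaglandin D2 and cysteinyl leukotrienes, no member had enough counts and 0% of genes were called, with 116 at an unadjusted p under 0.05 and 1 called by DESeq2. Mast cells and cavity-type cells gave too few mice per genotype for a test.

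Over all macrophages, no member passed between genotypes (0 of 9, with 4 at an unadjusted p under 0.05, as were 12.3% of all genes). The test called 0% of the 8170 genes, with 1002 at an unadjusted p under 0.05 and 47 called by DESeq2. Pla2g2d had the largest difference, 62.9 ± 17.1 CPM in Jak2WT and 31.9 ± 19.1 CPM in mutant mice (SD, n = 5 each), with a log2 fold change of −1.05 (edgeR adjusted p = 0.303). Dilation and aneurysm were also fitted as separate groups, so that they did not count as spread within the mutant group. Pla2g2d (−1.36, edgeR adjusted p = 0.00249) and Hpgd (−0.61, edgeR adjusted p = 0.0243) then passed, where that fit called 3.12% of genes (282 of 9033). Pla2g2d was 44.7 ± 10.5 CPM in dilation (SD, n = 3), overlapping Jak2WT mice, and 12.6 ± 0.65 CPM in aneurysm (n = 2). Hpgd was 630 ± 135 CPM in Jak2WT, 503 ± 31.5 in dilation and 317 ± 29.7 in aneurysm. Ccr2+ inflammatory cells were 66.8% and 50.3% of macrophages in aneurysm mice 7 and 9. Their part in these calls was not tested.

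Aneurysm against dilation over all macrophages was the comparison in which most members differed. Of 10 members, 1 rose and 4 fell, where 12.4% of all 9860 genes were called, 7.33% rising and 5.07% falling. The median log2 fold change of the members was −0.62, against −0.01 over all genes. Pla2g2d was 13.1 and 12.2 CPM in aneurysm mice 7 and 9 and 56.6, 36.5 and 41.1 CPM in dilation mice 6, 8 and 10. Its log2 fold change was −1.74 (SE 0.21, edgeR adjusted p = 0.000585), and the groups did not overlap.

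Both leukotriene enzymes fell. Ltc4s was 232 and 321 CPM in the aneurysm mice and 536, 524 and 537 CPM in the dilation mice, with a log2 fold change of −0.87 (SE 0.14, edgeR adjusted p = 0.0032). Alox5 was 54.1 and 66.8 CPM against 110, 115 and 109 CPM, with −0.81 (SE 0.13, edgeR adjusted p = 0.00309). Alox5ap, their partner, was not called (−0.15, edgeR adjusted p = 0.465). Hpgd was 338 and 296 CPM in the aneurysm mice against 509, 531 and 469 CPM, with −0.59 (SE 0.11, edgeR adjusted p = 0.0086).

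Ptgs2 rose, with 328 and 286 CPM in aneurysm mice 7 and 9 against 85.7, 50.9 and 171 CPM in dilation mice 6, 8 and 10. Its log2 fold change was 1.61 (SE 0.36, edgeR adjusted p = 0.0164). That call was lost with DESeq2 (adjusted p = 0.105) and without mouse 6 (edgeR adjusted p = 0.0765) or mouse 7 (0.0553), and that of Hpgd was lost without mouse 9 (0.0641) or with Jak2WT mice in the fit (0.0652). Hpgds (0.04), Pla2g4a (0.29) and Ptgs1 (−0.65) were not called; Ptgs1 passed without a filter on low counts (edgeR adjusted p = 0.00157) and without mouse 8 (0.0167). Alox15 had −2.76 (edgeR adjusted p = 0.0533) on 3 to 35 UMIs per mutant mouse, 35 of them in mouse 8. Of those 35 UMIs, 29 lay in 2 cells of the monocyte cluster. The Alox15 value passed with DESeq2 (adjusted p = 0.00883), without a filter (4.4e-08), with total UMIs as scaling (0.0483) and without mouse 10 (0.0431). In the other 9 of 13 alternative settings it did not pass (edgeR adjusted p up to 0.206). Over all 13 it ran from −3.75 to −1.60. Markers of cavity-type cells summed to 37.1 to 260 CPM in macrophages of dilation mice and to 30.3 to 41.7 CPM in those of aneurysm mice, and their part in the Alox15 value was not tested.

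The share of Ccr2+ inflammatory cells among macrophages moved with these calls. It was 66.8% and 50.3% in aneurysm mice 7 and 9, 7.03%, 2.44% and 7.69% in dilation mice 6, 8 and 10, and 0% to 10.9% in Jak2WT mice. Compared with resident macrophages, Ccr2+ inflammatory cells had lower pooled levels of Ltc4s (60.1 against 759 CPM), Hpgd (233 against 589 CPM) and Pla2g2d (1.9 CPM, with 2 UMIs and 1 UMI in mice 7 and 9), and a higher level of Ptgs2 (374 CPM). Mice 7 and 9 gave 233 and 189 of these cells, so the pooled levels of Ltc4s, Hpgd and Ptgs2 are mainly those of aneurysm mice. The pooled level of Pla2g2d rests mainly on Jak2WT mouse 2, and mice 7 and 9 stood at 0.69 and 0.32 CPM. In Jak2WT mouse 2 (12 cells) and dilation mouse 10 (19 cells), Hpgd was 582 and 442 CPM, against 244 and 196 CPM in mice 7 and 9. Pla2g2d was 79.7 CPM in mouse 2, from 10 UMIs, and 0 CPM in mouse 10. When macrophages outside the Ccr2+ inflammatory cluster were compared, a choice made after the values had been seen, 0 of 9 members (1 at an unadjusted p under 0.05, as were 6.3% of all genes) and 0.023% of genes were called. Ltc4s was then 0.11 (edgeR adjusted p = 0.913), Alox5 −0.09 (0.936), Hpgd −0.15 (0.867), Pla2g2d −0.57 (0.729) and Ptgs2 0.74 (0.784), all log2 fold changes.

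**Figure D5:**
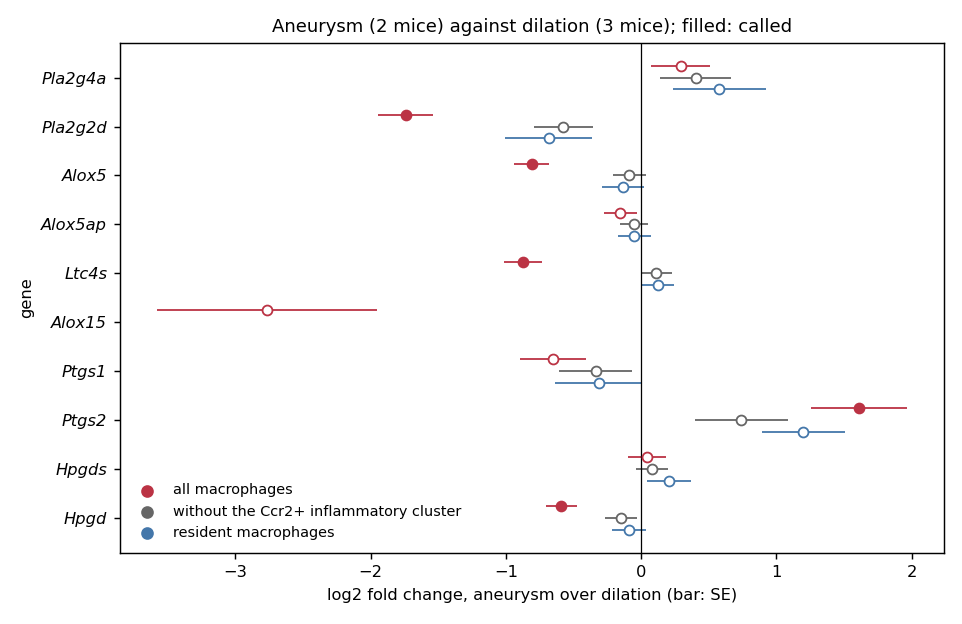
Log2 fold change of aneurysm (2 mice) against dilation (3 mice) with its SE for each member, in all macrophages, in macrophages outside the Ccr2+ inflammatory cluster and in resident macrophages; filled points passed the test. In all macrophages Ptgs2 was at 1.61 and Pla2g2d at −1.74, and no member passed outside the Ccr2+ inflammatory cluster or in resident macrophages.

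Among the 69 other pathway genes, 32 could be tested over all macrophages, and 4 rose and 2 fell in aneurysm against dilation. Over all 9860 genes, that comparison called 12.4%, with 7.33% rising and 5.07% falling. Those that rose were Ltb4r1, the leukotriene B4 receptor (2.07, edgeR adjusted p = 0.0473), Dpep2, a dipeptidase that acts on leukotriene D4 (1.77, 0.00065), Cyp4f18, which degrades leukotriene B4 (1.54, 0.00388), and Lpcat2, an acyltransferase of platelet-activating factor synthesis (1.52, 0.000126). Those that fell were Ephx1 (−1.005, 0.00145) and Cmklr1, a receptor for chemerin (−0.81, 0.0043). In levels pooled over mice, Lpcat2 stood at 110 CPM in Ccr2+ inflammatory and 26.1 CPM in resident macrophages, Cyp4f18 at 73.8 and 15.8, and Ltb4r1 at 10.8 and 1.02. Ephx1 stood at 22.6 and 119 and Cmklr1 at 36.9 and 112 CPM. The Ccr2+ inflammatory cells came mainly from the aneurysm mice of the test, so these levels are not separate support for its calls. No other pathway gene was called between genotypes, with 0 of 25 in resident macrophages, 0 of 17 in IEG+ Vcam1+ cells, 0 of 28 in all macrophages, 0 of 16 in cDC2, 0 of 5 in B cells and 0 of 7 in ILC2.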

How the data were processed

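The authors deposited UMI counts per cell barcode, unnormalized, from Cell Ranger on mm10, with 75 antibodies and 10 hashtags, in 8471 barcodes; per the labels Seurat (3.0.0) was used afterwards. Work here used R 4.3.3, Seurat 5.3.0, limma 3.58.1, edgeR 4.0.16, Matrix 1.6.5 and DESeq2 1.42.0. Barcodes were assigned to mice with HTODemux (quantile 0.99): 69.1% were singlets, and doublets (2265) and negatives (349) were left out, as were cells over 10% mitochondrial UMIs. The 2000 variable genes excluded the 79 pathway genes; 20 principal components and Louvain resolution 0.3, then 0.8 for macrophages, gave clusters that were named from marker lists. Cell types are rebuilt and the names may differ from those of the study.

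Counts were summed per mouse and class (at least 10 cells), low genes were removed with filterByExpr, and two-sided quasi-likelihood tests of edgeR with TMM factors were made. Their p-values were adjusted by Benjamini-Hochberg over all genes tested, with a threshold of 0.05. Only the test between genotypes in resident macrophages was also run on simulated counts with known changes. The clustering and the other comparisons were not. Alternatives were DESeq2, no filter, RLE or total UMIs, the pathway genes among the variable genes, a 5% mitochondrial limit, resolution 1.2, sums of 1 cell, a fit of all 3 groups, and each mouse left out. The members, lists and tests were chosen with earlier results of these data known. Genes named are the members, called pathway genes (at most 8 per comparison by size), pathway genes with the highest level in a class, and the 2 genes most like each member; the other synthases named by level in cavity-type and resident macrophages were chosen after their values were seen. Intervals cover counting error only. All mice share 1 library, so free RNA of the pool can reach every class. Free RNA was not measured itself, and B cells were taken as its gauge. Their Ptgs2 level varied between mice, so for that gene the gauge is uncertain. Promoters are from RefSeq (GRCm38.p6).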

Additional observations from a re-analysis of the deposited data

Results flagged for a closer look

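Of 68 groups of 4 or 5 mice examined, 3 held a mouse far from the others, about as many as the 1 in 20 that chance alone would give. Ptgs1 in all macrophages was lowest in Jak2WT mouse 4, at 57.5 CPM from 28 UMIs in 46 cells, against 83.7 to 94.3 CPM in the other Jak2WT mice. Ltc4s in IEG+ Vcam1+ macrophages was highest in aneurysm mouse 9, at 660 CPM, against 397 to 468 CPM in the other mutant mice. Alox5ap in B cells was highest in the same mouse, at 430 CPM from 57 UMIs in 16 cells, against 62.2 to 103 CPM.

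The genotype effect on Ptgs2 differed between resident and IEG+ Vcam1+ macrophages by 2.21 on the log2 scale. That on Ephx1 differed by −1.05 (edgeR adjusted p = 0.0478), in the same test of the difference itself over 9 mice. This comparison was chosen after the values had been seen, and the Ptgs2 call was lost in 7 of 18 alternative settings, DESeq2 among them.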

How the results depend on the processing

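Alternatives moved the number of genes called and also some values of the members. In resident macrophages, the Ptgs2 log2 fold change ran from 0.56 to 1.62 between genotypes. It ran from 0.11 to 1.43 for dilation against Jak2WT and from 0.30 to 1.48 for aneurysm against dilation. With only mice left out, the value between genotypes ran from 1.16 to 1.62. Genes called are given in the order resident macrophages, all macrophages, IEG+ Vcam1+ cells, cDC2, B cells and ILC2 between genotypes, then dilation against Jak2WT and aneurysm against dilation in resident macrophages, then the differences of the genotype effect from cDC2 and from IEG+ Vcam1+ cells, leaving out those within 1.5 times the number reported. With no filter on low counts there were 308, 26, 178, 64, 27, 40, 201, 66, 110 and 109, with 1 member called in resident, IEG+ Vcam1+ and aneurysm against dilation resident cells and 2 in the difference from cDC2. With DESeq2 there were 87, 47, 15 (cDC2), 1 (ILC2), 9, 2 and 9, and 0 members in the difference from IEG+ Vcam1+ cells. With pathway genes among the variable genes there were 159, 7 (IEG+ Vcam1+), 2 (cDC2), 29, 6 and 5, and with a 5% mitochondrial limit 127, 2, 2, 10, 9 and 2. With all 3 groups in the fit there were 282 in all macrophages, 2 of them members, 60 in IEG+ Vcam1+ cells and 0 in aneurysm against dilation resident cells, which also had 0 at resolution 1.2. With sums of 1 cell there were 15 (IEG+ Vcam1+), 2 (difference from cDC2) and 23 with 0 members (difference from IEG+ Vcam1+), and total UMIs gave 24 in the last. Outside the Ccr2+ inflammatory cluster, aneurysm against dilation called 2 genes and 0 members, and Ltc4s changed sign to 0.11. The cause of these changes was not tested.

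With each mouse left out in turn, the genes called were 2 to 153 (resident), 0 to 3 (all macrophages), 8 to 40 (IEG+ Vcam1+), 1 to 5 (cDC2), 0 to 1 (ILC2), 2 to 34 (dilation), 0 to 7 (aneurysm against dilation, resident), 644 to 967 (the same, all macrophages), 1 to 11 (difference from cDC2) and 7 to 60 (difference from IEG+ Vcam1+); the members called were 0 to 1 in resident cells, 4 to 6 in aneurysm against dilation over all macrophages (0 to 7 over the other alternatives) and 0 to 1 in the last.

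Signs turned for values that were not called: in the difference from cDC2, Pla2g2d was −0.53 at the 5% limit and ran from −1.16 to 2.00 over the mice left out (below 0 without mouse 1 or 7), and Ptgs2 was −0.26 at resolution 1.2 and ran from −0.016 (without mouse 5) to 0.95. In the difference from IEG+ Vcam1+ cells, Ptgs1 was −0.0758 with pathway genes as variable genes and −0.10 at the 5% limit. Between genotypes, Pla2g2d ran from −0.71 to 0.30 (without mouse 2) in IEG+ Vcam1+ cells and Ltc4s from −0.88 to 0.62 (without mouse 5) in cDC2. Without thinning, the share of cells with a UMI was 96.6% for Ltc4s in Res-S100hi, 98.6% for Alox5ap, 98.6% for Alox15, 89.9% for Ptgs1, 65.2% for Ptgs2 and 50.2% for Pla2g4a in cavity-type cells, and 97.6% for Hpgd and 30.1% for Pla2g2d in Res-Txnip hi cells. Depth limits Ptgs2 in resident macrophages, with 2 to 64 UMIs per mouse, and cavity-type and mast cells, with 3 and 4 mice.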
